A study of Mus musculus with 10 samples.

Results

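The 37 genes described here mark T cells, natural killer (NK) and cytotoxic cells, and B and plasma cells. They were taken by symbol from a list by lineage (19 T, 12 NK and cytotoxic, 6 B and plasma cell genes), and all 37 were found among the 39056 genes of the count table. The table holds 10 libraries of mouse liver or liver tumour RNA, made by 3' tag sequencing, in which each read starts near the end of a transcript, so that a count depends little on transcript length. All mice were C57BL/6 and 11 months old, and were wild-type (WT) or lacked MLK3 (MLK3-KO, here KO), a kinase encoded by Map3k11. WT liver and KO liver (2 libraries each) came from mice given plain water. WT tumours and KO tumours (3 libraries each) came from males injected with the carcinogen DEN, at the age of 2 weeks and a dose of 5 µg per g. After a lag of 1 week these mice drank water with 0.05% of the tumour promoter PB until they were killed. DEN and PB were always given together, so carcinogen, promoter and tumour cannot be told apart. The sources used here do not say whether the knockout is confined to a cell type, and the labelled tumour tissue is called treated liver in the extraction protocol. The series calls the replicates biological.

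T cells recognise antigen through a receptor of alpha and beta chains that signals through the CD3 proteins. The coreceptor CD8 marks killer T cells and CD4 marks helper and regulatory T cells. NK cells and killer T cells destroy target cells with granzymes and perforin, and NK cells are abundant in mouse liver. B cells sense antigen through surface immunoglobulin and mature into plasma cells, which secrete antibody built from heavy and light chains. In liver cancer these cells are known both for attacking tumour cells and for taking part in chronic inflammation.

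Library totals ran from 12408749 to 18081487 counts. Levels are given as CPM (a gene's reads relative to the library total, scaled by edgeR's TMM factors), and 3 counts, the upper limit that a count of 0 allows, stood for 0.156 to 0.231 CPM. These limits cover counting error only, because reads without molecular identifiers are not independent molecules. One library stood apart from its group: KO tumour 2 had 55 counts of the fetal liver and liver tumour gene Afp and 7 of the tumour antigen Gpc3. The other 5 tumours had 2000 to 8684 counts of Afp and 608 to 8469 of Gpc3, and the 4 livers had 4 to 111 and 0 to 70. Results are therefore also given without KO tumour 2. Map3k11 gave 82 to 237 counts in the livers and 81 to 234 in the tumours, with KO libraries among them. These reads come from the 3' end, and the sources used here do not give the deleted stretch, so they check neither the knockout nor the labels. Hepatocyte genes (10, among them Alb and Apoa1) summed to 70600 to 80700 CPM in the livers, 133000 to 182000 in the WT tumours and 67200 to 84000 in the KO tumours. Each library was thus rich in hepatocyte RNA, and since the KO tumours overlapped the livers this sum does not tell tumour from liver.

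Transcripts of the 37 genes were rare and unevenly caught. Of the 370 values (37 genes in 10 libraries), 152 were 0 and 16 were 1 or 2 counts. In the livers 81 of 148 values were 0 (54.7%), and in the tumours 71 of 222 (32.0%). Lck, Zap70, Il2rb, Klrk1, Jchain, Ighm and Igkc were the 7 genes with a count in every library. Ncr1, the NK cell receptor NKp46, had none in any. Counts were clumped: among the 10 genes that averaged 10 to 20 counts per library, 47 of 100 values were 0. Cd27, a costimulatory receptor, shows the form this took, with 56 counts in KO liver 1 and 0 in the 3 other livers.

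**Figure D1:**
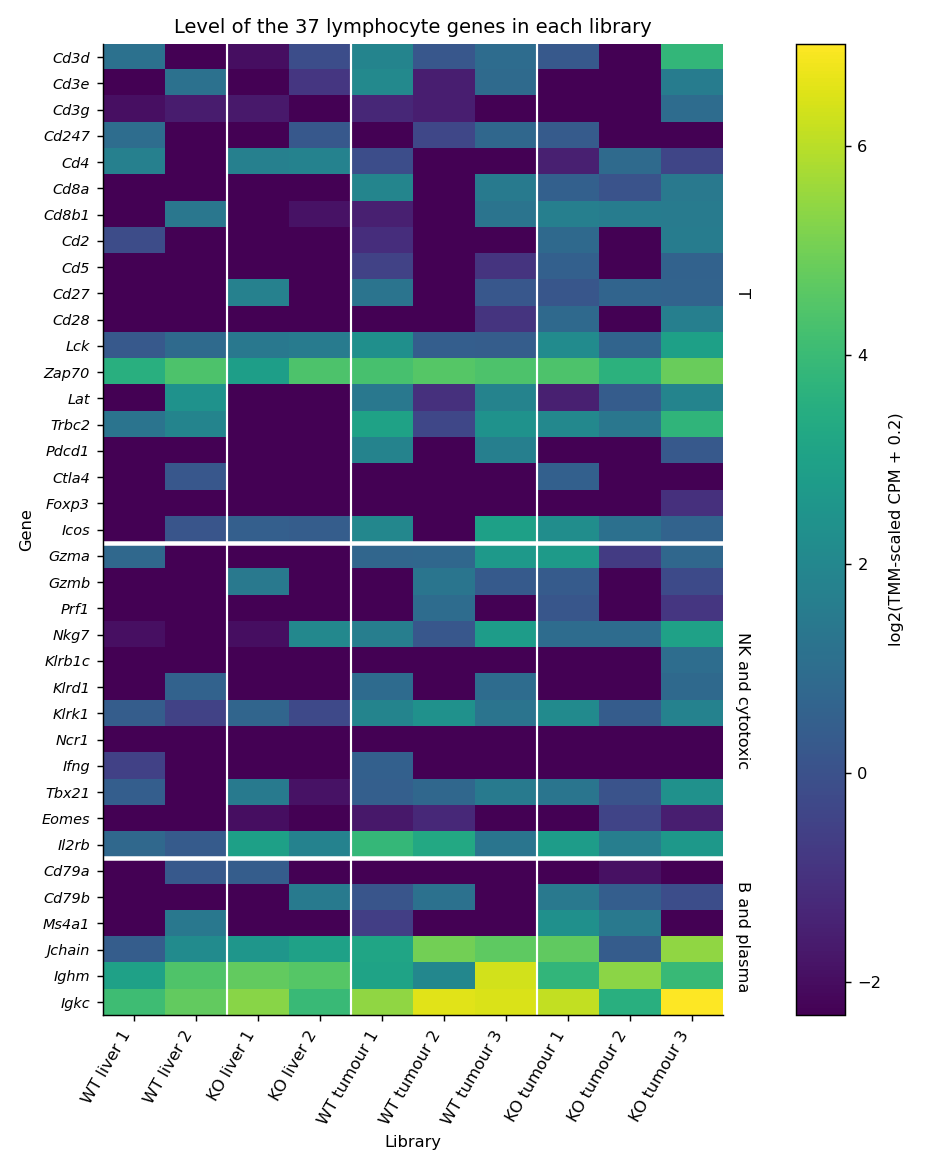
Level of each of the 37 genes (rows, by lineage) in each of the 10 libraries (columns), as log2 of TMM-scaled CPM plus 0.2. The darkest cells hold a count of 0 (152 of 370 values); averaged over the libraries, Igkc, Ighm, Zap70 and Jchain are the highest.

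Because single genes were clumped, levels were summed per lineage in each library. These sums describe the chosen genes and carry no test. T cell genes summed to 22.3 and 37.5 CPM in the WT livers, 17.3 and 29.9 in the KO livers, 56.4, 26.8 and 52.2 in the WT tumours, and 46.4, 25.8 and 88.8 in the KO tumours. Above all livers lay 4 of 6 tumours, while WT tumour 2 and KO tumour 2 lay within the range of the livers. The mean was 26.7 CPM ± 8.8 (SD, n = 4) in liver and 49.4 ± 23 (SD, n = 6) in tumours, a ratio of 1.85.

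One gene carried much of this sum. Zap70, the kinase that relays the T cell receptor signal, made up 32.4% to 85.6% of it. Without Zap70 the T sum was 10.9 and 16.6 CPM in the WT livers, 10.1 and 9.21 in the KO livers, 37.5, 3.86 and 31.8 in the WT tumours, and 25.9, 13.5 and 60.1 in the KO tumours. The ratio of tumour to liver means rose to 2.46, and WT tumour 2 became the lowest of all 10 libraries. The number of T genes with any count followed the same libraries: 7 to 9 of 19 in the livers, 8 in WT tumour 2, 9 in KO tumour 2, and 14 to 17 in the other 4 tumours.

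NK and cytotoxic genes summed to 6.03 and 2.90 CPM in the WT livers, 14.2 and 7.79 in the KO livers, 26.5, 22.9 and 23.1 in the WT tumours, and 23.5, 7.61 and 28.2 in the KO tumours. Every tumour except KO tumour 2 lay above all 4 livers, and the 3 WT tumours were close to each other. The liver mean was 7.73 CPM ± 4.8 (SD, n = 4) and the tumour mean 22.0 ± 7.4 (SD, n = 6), a ratio of 2.84. WT tumour 2, lowest in T genes without Zap70, was not low in this lineage.

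B and plasma cell genes summed to 25.6 and 55.4 CPM in the WT livers, 73.5 and 48.9 in the KO livers, 61.3, 132 and 195 in the WT tumours, and 117, 57.7 and 185 in the KO tumours. In this lineage, too, 4 of 6 tumours lay above all livers, and WT tumour 1 and KO tumour 2 did not. The ratio of means was 2.45, from 50.9 CPM ± 20 (SD, n = 4) to 125 ± 59 (SD, n = 6). The antibody genes Ighm, Igkc and Jchain made up nearly all of the sum. Without them, the B cell surface genes Cd79a, Cd79b and Ms4a1 summed to 0 to 3.47 CPM in the livers and 0 to 7.40 in the tumours, with a ratio of 1.42 and overlapping libraries. In these bulk samples, fewer cells of a type and less RNA per cell cannot be told apart.

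**Figure D2:**
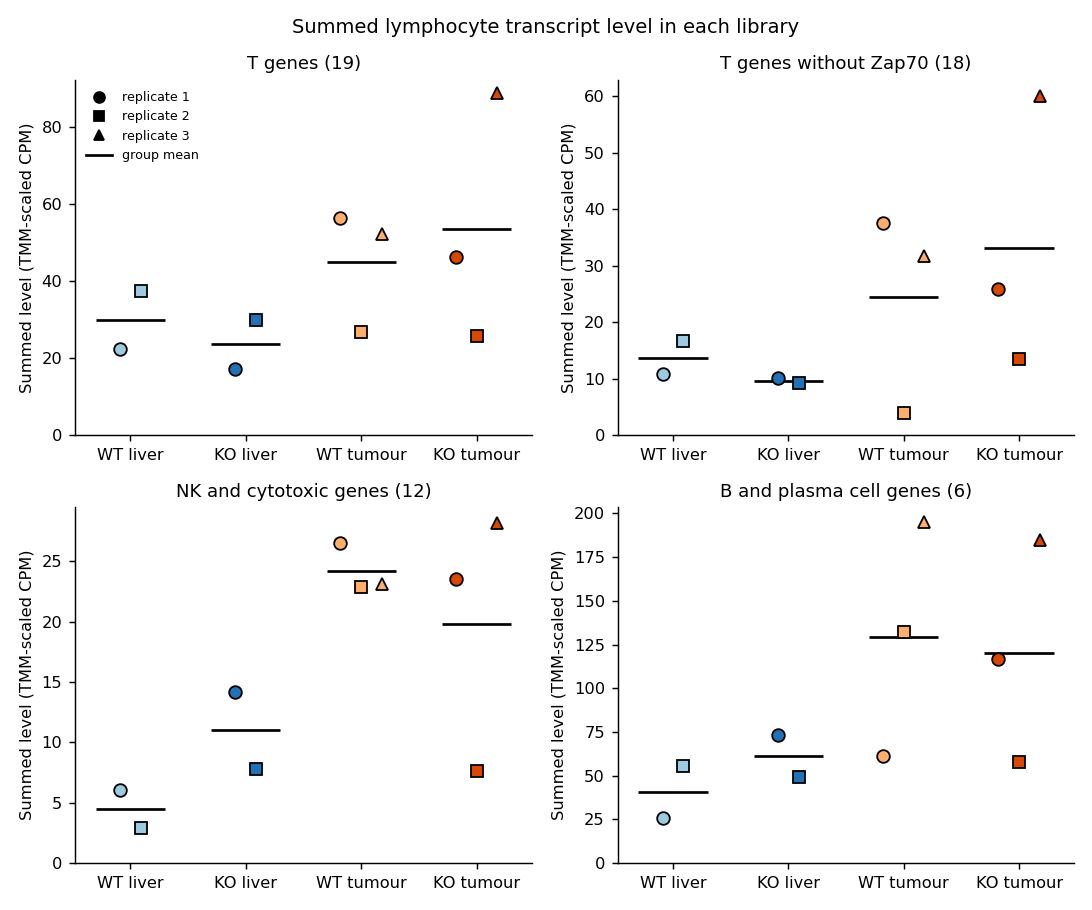
Summed TMM-scaled CPM per library for the 19 T genes, the 18 T genes without Zap70, the 12 NK and cytotoxic genes and the 6 B and plasma cell genes; points are libraries, with the marker giving the replicate number, and bars are group means. Most tumours lie above the livers in each panel, and KO tumour 2 lies within the range of the livers in all of them.

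Without KO tumour 2 the ratios of tumour to liver means were 2.02 for all T genes, 2.72 for T genes without Zap70, 3.22 for NK and cytotoxic genes, and 2.72 for B and plasma cell genes. By genotype, the log2 ratio of tumour to liver sums was 0.59 in WT and 1.19 in KO for T genes, 2.44 and 0.85 for NK and cytotoxic genes, and 1.68 and 0.97 for B and plasma cell genes. All were positive, but without Ighm, Igkc and Jchain the B and plasma cell ratio in WT turned to -0.62. Leaving out KO tumour 2 moved the ratio of KO tumour to KO liver means from 2.28 to 2.87 for T genes. For NK and cytotoxic genes it moved from 1.8 to 2.35, and for B and plasma cell genes from 1.96 to 2.47. The WT ratios were 1.51, 5.41 and 3.19 in the same order. No order of the genotypes was shared by the lineages, with or without KO tumour 2. Whether these ratios differ between genotypes was not tested for the sums. It was tested gene by gene, as the interaction described below.

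Single genes were tested with edgeR's quasi-likelihood test over 15811 genes, with Benjamini-Hochberg adjusted p-values and a call at an adjusted p under 0.05. Of the 37 genes, 31 passed the filter on low counts. Cd3g, Foxp3, Klrb1c, Ncr1, Ifng and Eomes did not. Among the tested genes, 5 (Cd8a, Cd5, Cd28, Pdcd1 and Prf1) had no count in any liver and so passed through the tumours alone, where they had to differ. When tumours were compared with livers with equal weight on both genotypes, 3 of 31 genes rose (Trbc2, Cd8a and Jchain) and none fell. That share, 9.68%, stood against 4.86% of all tested genes called higher and 4.33% called lower. Cd8a is among the 5 that had to differ; of the 26 others 2 were called (7.69%), and nothing is read from these shares. None of the 31 had all 6 tumours above or all 6 below the 4 livers, which 2.35% and 2.27% of all tested genes had. At an unadjusted p under 0.05, 11 genes were higher and 1 lower, where 13.6% and 10.0% of all tested genes were. DESeq2 called 5, all higher (Trbc2, Cd8a, Jchain, Gzma and Nkg7), and 15.2% of all tested genes. The median fitted log2 fold change was 2.68, or 1.35 when 3 counts per library stood in for each group without counts, against 0.1 for all tested genes. Of the 31 genes, 16 had at least 1 group without counts, for which a fitted fold change depends on the model's prior count and is no bound.

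**Figure D3:**
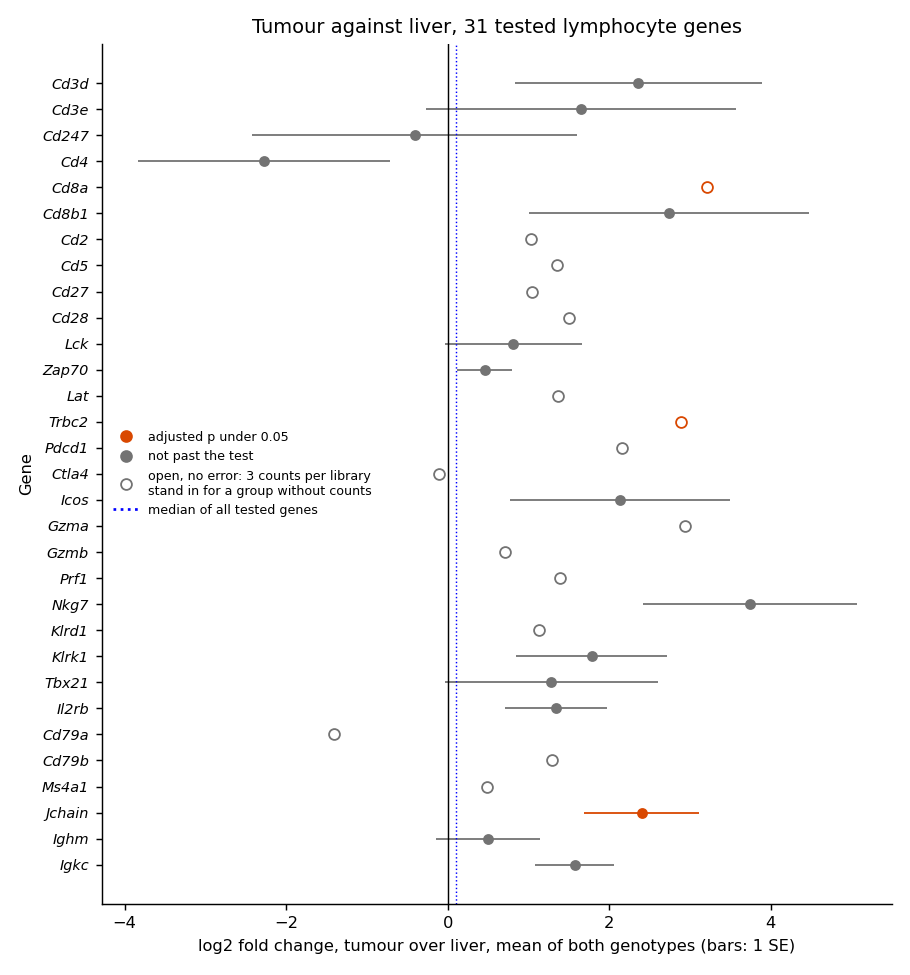
Log2 fold change of tumour over liver, averaged over both genotypes, for the 31 tested genes (rows); filled points carry 1 SE from edgeR, and open points, without error, use 3 counts per library for any group without counts. The 3 orange genes, Trbc2, Cd8a and Jchain, passed the test; the dotted line is the median of all tested genes.

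The T cell receptor chains and the proteins that carry their signal were described first. Trbc2 (chr6:41546730-41548352, plus strand, GRCm38) encodes a constant region of the receptor's beta chain. It had 35 and 55 counts in the WT livers, 0 and 0 in the KO livers, 154, 8 and 81 in the WT tumours, and 50, 34 and 184 in the KO tumours. Both KO livers were empty and WT tumour 2 was lowest of the tumours, so that WT tumours overlapped WT livers while all KO tumours lay above both KO livers. The mean level was 1.42 CPM ± 1.7 (SD, n = 4) in liver and 5.55 ± 4.5 (SD, n = 6) in tumours, a ratio of 3.92, and 4 of 6 tumours lay above all livers. Its fitted log2 fold change was 5.17 ± 1.19 (SE, edgeR adjusted p = 0.014), or 2.89 with the empty group at 3 counts per library. The call was lost without KO tumour 3 (adjusted p = 0.056), and over 15 alternative settings the adjusted p from edgeR or DESeq2 ran from 1.1e-04 to 0.067.

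The signalling proteins of the receptor gave no call. Cd3d had 32 and 0 counts in the WT livers, 1 and 10 in the KO livers, 66, 13 and 27 in the WT tumours, and 13, 0 and 196 in the KO tumours. KO tumour 3 held the largest part of these reads, and KO tumour 2 had none; the log2 fold change was 2.36 ± 1.53 (SE, edgeR adjusted p = 0.38). Cd3e had 0 and 32 counts, 0 and 5, then 76, 2 and 26, and 0, 0 and 39 in the same order of groups. Its log2 fold change of 1.65 ± 1.92 (SE, edgeR adjusted p = 0.68) turned to -1.79 without KO tumour 3. That fit left the KO tumours without a count, so -1.79 depends on the model's prior count and nothing is read from its sign. Cd3g stayed at 0 to 4 counts except for 24 in KO tumour 3, and Cd247, the zeta chain, ran from 0 to 29 counts in the livers and from 0 to 24 in the tumours.

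Of the coreceptor genes only Cd8a passed the test. It passed the filter on low counts through the tumours alone, so it could only come out higher there, and its direction is not read as a result. Cd8a (chr6:71373427-71379173, plus strand), the alpha chain of CD8, had no count in any of the 4 livers, 68, 0 and 40 counts in the WT tumours, and 16, 12 and 35 in the KO tumours. Thus 5 of 6 tumours had Cd8a, and WT tumour 2 had none. Tumours averaged 1.78 CPM ± 1.3 (SD, n = 6), at least 9.36-fold higher than the limit of 3 counts per liver library. The fitted log2 fold change was 7.76 ± 2.25 (SE, edgeR adjusted p = 0.049), and among the 10 settings that left out 1 library the call held only without WT tumour 2. Over its 15 alternatives the adjusted p from edgeR or DESeq2 ran from 7.2e-04 to 0.16, under 0.05 in 5.

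Cd8b1, the beta chain of CD8, had 0 and 38 counts in the WT livers, 0 and 1 in the KO livers, 3, 0 and 34 in the WT tumours, and 39, 40 and 38 in the KO tumours. The 3 KO tumours were nearly equal and lay above every WT tumour. Cd4 had 49 and 0 counts in the WT livers, 54 and 46 in the KO livers, 14, 0 and 0 in the WT tumours, and 2, 24 and 8 in the KO tumours. Of the livers, 3 of 4 exceeded every tumour, and WT liver 2 was empty. The log2 fold change of Cd4 was -2.28 ± 1.56 (SE, edgeR adjusted p = 0.42), and it became 1.5 without WT liver 1. That fit left only the empty WT liver 2 in its group, so 1.5 depends on the model's prior count and nothing is read from its sign. Macrophages and dendritic cells can also carry Cd4, and the part of such cells in its counts was not tested.

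Zap70 and Lck, the kinases just below the receptor, were present in every library. Zap70 had 182 and 331 counts in the WT livers, 125 and 292 in the KO livers, 363, 315 and 319 in the WT tumours, and 266, 176 and 399 in the KO tumours. Its groups overlapped, with a log2 fold change of 0.46 ± 0.34 (SE, edgeR adjusted p = 0.46). At 15.0 CPM ± 6.9 (SD, n = 4) in liver it was far above Lck, at 1.95 ± 0.77 (SD, n = 4), on this 3' tag scale. Lck had 16 and 26 counts, 43 and 38, then 92, 16 and 18, and 55, 20 and 106, with a log2 fold change of 0.81 ± 0.85 (SE, edgeR adjusted p = 0.63). The adaptor Lat had 0 and 81 counts in the WT livers, none in the KO livers and 2 to 53 in the tumours.

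Several costimulatory and inhibitory receptors had no count in liver, while Icos had counts in most livers. Cd28, the receptor that seconds the antigen signal, and Cd5, a brake on it, had no count in any liver; in tumours Cd28 ran from 0 to 42 counts and Cd5 from 0 to 18. Pdcd1, the exhaustion-associated inhibitory receptor PD-1, also had none in liver, 65, 0 and 47 counts in the WT tumours, and 0, 0 and 14 in the KO tumours. Tumours as a group were at least 6.48-fold above the liver limit for Pdcd1 (edgeR adjusted p = 0.14). With all livers empty, Cd28, Cd5 and Pdcd1 could only come out higher in tumours. Icos, a costimulator of activated T cells, had 0 and 14 counts in the WT livers, 21 and 16 in the KO livers, 73, 0 and 120 in the WT tumours, and 59, 28 and 19 in the KO tumours. In Icos level, 5 of 6 tumours exceeded all livers, and its log2 fold change was 2.13 ± 1.36 (SE, edgeR adjusted p = 0.38).

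The remaining T genes were scattered. Cd2, an adhesion receptor, ran from 0 to 11 counts in liver and 0 to 39 in tumours, and Cd27 from 0 to 56 and 0 to 42. Ctla4, an inhibitory receptor, had 15 counts in WT liver 2, 16 in KO tumour 1 and none elsewhere. Foxp3, the master factor of regulatory T cells, had 4 counts in KO tumour 3 and none elsewhere, so its level could not be compared at this depth.

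**Figure D4:**
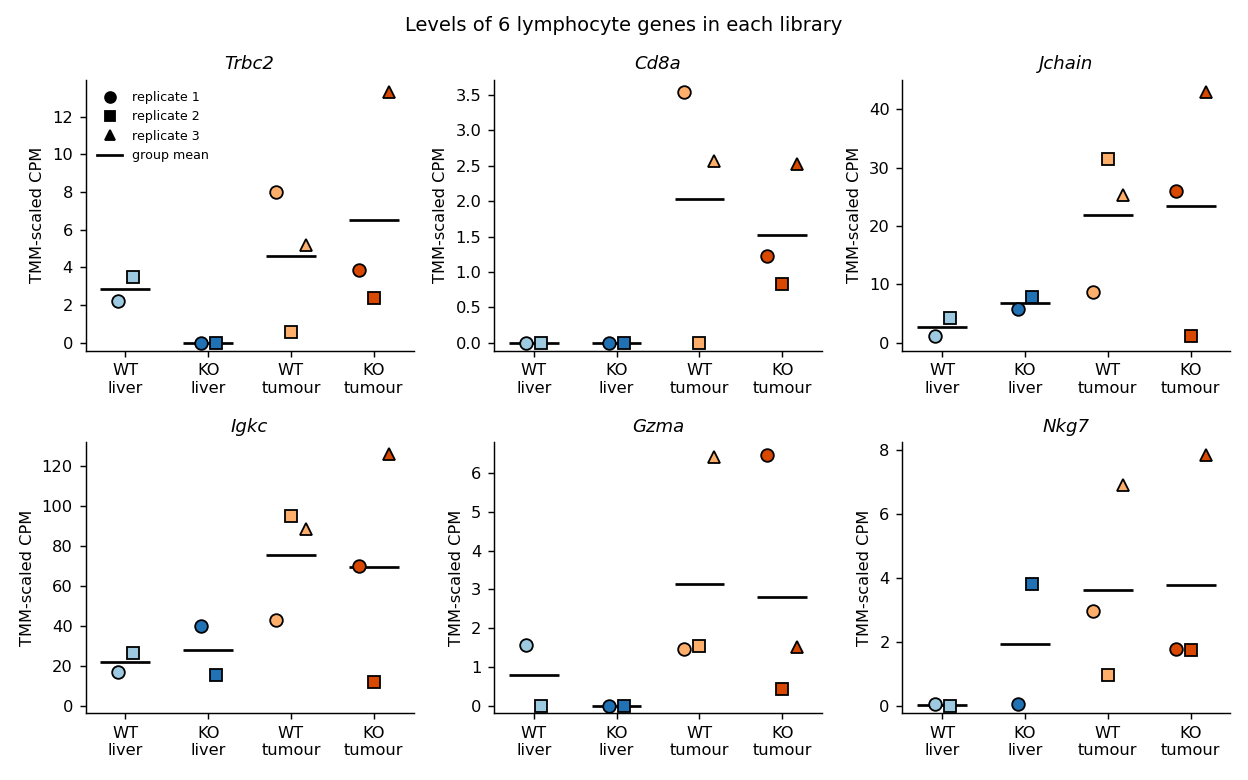
TMM-scaled CPM of Trbc2, Cd8a, Jchain, Igkc, Gzma and Nkg7 in each library; points are libraries, with the marker giving the replicate number, and bars are group means. The libraries of a group are far apart: Trbc2 runs from 0.583 to 8.02 CPM in the WT tumours, and Jchain from 1.12 to 43.0 in the KO tumours.

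In the cytotoxic and NK genes, none of the 8 tested members passed edgeR's test and all had a fitted value above 0. Prf1, 1 of the 8, had no count in any liver and so had to come out above 0. Nothing is read from the counts of members and the median given here. At an unadjusted p under 0.05, 4 were higher and none lower, against 13.6% and 10.0% of all tested genes. DESeq2 called Gzma and Nkg7, and 15.2% of all tested genes. The lineage's median fitted log2 fold change was 3.20, or 1.37 with empty groups at 3 counts per library. Gzma, a granzyme of killer T and NK cells, had 25 and 0 counts in the WT livers, 0 and 0 in the KO livers, 28, 21 and 100 in the WT tumours, and 84, 6 and 21 in the KO tumours. Each tumour had Gzma reads, while 3 of 4 livers had none. Means were 0.393 CPM ± 0.79 (SD, n = 4) and 2.97 ± 2.7 (SD, n = 6), with a log2 fold change of 5.21 ± 1.71 (SE, edgeR adjusted p = 0.076).

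Nkg7, a cytotoxic granule protein, had 1 and 0 counts in the WT livers, 1 and 54 in the KO livers, 57, 13 and 108 in the WT tumours, and 23, 25 and 109 in the KO tumours. KO liver 2 lay among the tumours and the other livers were nearly empty. The log2 fold change was 3.74 ± 1.32 (SE, edgeR adjusted p = 0.095). Gzmb, the granzyme that triggers caspases, had 44 counts in KO liver 1 and none in the other livers, against 0, 31 and 16 in the WT tumours and 14, 0 and 9 in the KO tumours (log2 fold change 2.98 ± 2.02 SE, edgeR adjusted p = 0.41). Prf1, the pore-forming perforin, had no count in liver and 0 to 24 in tumours.

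Of the receptors, Il2rb, a chain of the IL-2 and IL-15 receptors, had the highest level in its lineage. It had 25 and 17 counts in the WT livers, 132 and 46 in the KO livers, 276, 133 and 35 in the WT tumours, and 89, 42 and 83 in the KO tumours. KO liver 1 lay above 4 of the tumours in CPM (7.55), and the log2 fold change was 1.34 ± 0.63 (SE, edgeR adjusted p = 0.21). Klrk1, the activating receptor NKG2D, had 18 and 8 counts, 25 and 9, then 66, 69 and 34, and 54, 16 and 46. In Klrk1, 5 of 6 tumours exceeded all livers, with KO tumour 2 the exception, and the log2 fold change was 1.78 ± 0.94 (SE, edgeR adjusted p = 0.27).

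The more strictly NK-linked genes were close to empty. Ncr1 had no count in any library, and Klrb1c, the NK1.1 antigen of this strain, had 25 counts in KO tumour 3 and none elsewhere. Klrd1, the CD94 partner of NKG2 receptors, reached 21 counts in WT liver 2, 33 in WT tumour 1, 27 in WT tumour 3 and 22 in KO tumour 3, with no count elsewhere. The transcription factor Eomes did not exceed 8 counts, whereas Tbx21, encoding T-bet, had 0 to 45 counts in the livers and 12 to 69 in the tumours. Ifng, the cytokine interferon gamma, had 8 counts in WT liver 1 and 24 in WT tumour 1 alone.

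Over the 10 libraries, Igkc and Ighm had the highest mean levels of the 37 genes on this 3' tag scale (53.3 and 24.2 CPM), followed by Zap70 (18.4) and Jchain (15.5). Jchain (chr5:88519809-88527891, minus strand), which joins IgM and IgA into polymers, had 18 and 68 counts in the WT livers, 101 and 110 in the KO livers, 167, 433 and 394 in the WT tumours, and 338, 16 and 597 in the KO tumours. Of the tumours, 5 of 6 lay above all livers, and KO tumour 2 lay below all of them. The liver mean was 4.75 CPM ± 2.8 (SD, n = 4) and the tumour mean 22.6 ± 15 (SD, n = 6). The log2 fold change was 2.40 ± 0.71 (SE, edgeR adjusted p = 0.049). The call held in 3 of the 10 settings that left out 1 library (WT liver 2, WT tumour 1 or KO tumour 2) and was lost in the 7 others. Without KO tumour 2 the edgeR adjusted p was 0.002, and over 15 alternatives it ran from 1e-08 to 0.14 by edgeR or DESeq2.

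Igkc (chr6:70726435-70726966, plus strand), the kappa light chain constant region, had 266 and 418 counts in the WT livers, 693 and 219 in the KO livers, 826, 1300 and 1378 in the WT tumours, and 910, 166 and 1754 in the KO tumours. As for Jchain, 5 of 6 tumours exceeded all livers and KO tumour 2 was the exception, there with the lowest level of all libraries (11.6 CPM). The log2 fold change of Igkc was 1.57 ± 0.49 (SE, edgeR adjusted p = 0.058), and without KO tumour 2 it was 1.82 with an edgeR adjusted p of 0.0023. A predicted gene, Gm30211, overlaps Igkc on the same strand, and the part of its reads was not tested.

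Ighm, the IgM heavy chain, did not share this order. It had 124 and 337 counts in the WT livers, 471 and 326 in the KO livers, 158, 52 and 1264 in the WT tumours, and 177, 591 and 210 in the KO tumours. Only WT tumour 3 and KO tumour 2 exceeded all livers, and WT tumour 2 was lowest of all libraries. The log2 fold change was 0.50 ± 0.64 (SE, edgeR adjusted p = 0.71). It became -0.69 without WT tumour 3.

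Genes of the B cell surface were rare in liver and tumour alike. Cd79a, a signalling chain of the B cell receptor, had 16 counts in WT liver 2, 20 in KO liver 1, 1 in KO tumour 2 and none elsewhere (log2 fold change -5.08 ± 2.23 SE, edgeR adjusted p = 0.19). Its partner Cd79b had 36 counts in KO liver 2 and 10 to 33 in 5 of 6 tumours. Ms4a1, encoding CD20, reached 39 counts in WT liver 2, 9 in WT tumour 1, 63 in KO tumour 1 and 36 in KO tumour 2, with no count elsewhere (log2 fold change 2.68 ± 1.99 SE, edgeR adjusted p = 0.47).

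Within WT, 0 of 31 genes passed edgeR's test for tumour against liver, where 8.34% of all tested genes did. At an unadjusted p under 0.05, 5 genes were higher and none lower (10.7% of all tested genes in each direction). DESeq2 called 4, all higher (Cd8a, Nkg7, Il2rb and Jchain), where it called 15.5% of all tested genes. The lowest edgeR adjusted p among the 31 was 0.082, for Nkg7 (log2 fold change 6.52 ± 2.17 SE). With 1 and 0 counts of Nkg7 in the WT livers, under the limit of 3 counts, the size of this change is uncertain. In 6 genes all 3 WT tumours lay above both WT livers (Nkg7, Klrk1, Tbx21, Il2rb, Jchain and Igkc) and in none all below, against 19.6% and 17.6% of all tested genes. Without KO tumour 2, which is in neither group but shares the filter and the estimate of spread, 2 genes were called.

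Within KO, 0 of 31 genes passed edgeR's test, where 0.0759% of all tested genes did. At an unadjusted p under 0.05, 4 were higher and none lower, against 6.63% and 2.98% of all tested genes. DESeq2 called Trbc2 and Gzma, both higher, and 2.95% of all tested genes. The lowest edgeR adjusted p was 0.12, for Trbc2, whose tumour mean was at least 33.8-fold higher than the limit set by the 2 empty KO livers; without KO tumour 2 it was 0.037, and Trbc2 was called. Cd8a, Cd8b1, Lat, Trbc2, Icos and Gzma had all 3 KO tumours above both KO livers and Cd4 had all below, against 14.3% and 12.4% of all tested genes.

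The knockout was compared with the wild type in liver and in tumours. In liver 0 of 31 genes passed edgeR's test (0.00632% of all tested genes did), with 2 higher and 3 lower at an unadjusted p under 0.05, against 3.39% and 3.89% of all tested genes. DESeq2 called Trbc2 as lower in the KO livers, and 1.43% of all tested genes. The KO liver level of Trbc2 was at least 14.8-fold lower than in the WT livers (2.83 CPM ± 0.90, SD, n = 2), with an edgeR adjusted p of 0.43. In the same 2 KO livers Cd8a, Cd2, Cd5, Cd28, Lat, Pdcd1, Ctla4, Foxp3 and Trbc1 also had no count, and Cd3e had 0 and 5 and Cd3d 1 and 10. Of these, Cd8a, Cd5, Cd28, Pdcd1 and Foxp3 had no count in the WT livers either. The WT livers had 1 and 0 counts of Trbc1, 11 and 0 of Cd2, 0 and 81 of Lat and 0 and 15 of Ctla4. They had 0 and 32 of Cd3e and 32 and 0 of Cd3d. Lck had 43 and 38 counts in the KO livers and 16 and 26 in the WT livers. The alpha chain constant region Trac had 66 and 29 counts in the KO livers and 0 and 1 in the WT livers. In 6 genes both KO livers lay above both WT livers (Cd4, Lck, Icos, Il2rb, Jchain and Ighm) and in Trbc2 both below, against 15.5% of all tested genes in each direction.

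In tumours, 0 of 31 genes passed edgeR's test for KO against WT, where 4.52% of all tested genes did. No gene reached an unadjusted p under 0.05 (9.04% higher and 5.89% lower of all tested genes), and DESeq2 called none of the 15 T, 7 NK and 5 B genes to which it gave an adjusted p, against 8.17% of all tested genes. The median fitted log2 fold change was 0.07, and the lowest edgeR adjusted p was 0.48. Summed levels overlapped in each lineage: T genes averaged 45.1 CPM ± 16 in the WT tumours and 53.7 ± 32 in the KO tumours, NK and cytotoxic genes 24.2 ± 2.0 and 19.8 ± 11, and B and plasma cell genes 129 ± 67 and 120 ± 64 (SD, n = 3 each). In each lineage the difference between these means was smaller than the SD of the KO tumours. For NK and cytotoxic genes it exceeded the SD of the WT tumours. KO tumour 2 was the lowest KO tumour in each lineage (25.8, 7.61 and 57.7 CPM). Leaving out 1 library moved the log2 ratio of KO to WT tumour sums between -0.32 and 0.58 for T genes. For NK and cytotoxic genes the range was -0.64 to 0.1, and for B and plasma cell genes -0.56 to 0.31, so no lineage kept its sign. Cd8b1 was the 1 gene with all KO tumours above all WT tumours, against 12.2% of all tested genes.

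For the interaction, the difference between genotypes in the tumour-to-liver change, 0 of 31 genes passed edgeR's test, against 1.59% of all tested genes. At an unadjusted p under 0.05, 3 genes were higher and 2 lower (7.49% and 5.19% of all tested genes), and DESeq2 called Trbc2, where it called 5.20% of all tested genes. Trbc2 had the lowest edgeR adjusted p, 0.077, with the empty KO livers on one side of the contrast. The comparisons share libraries, so their values are not independent of each other.

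Further lymphocyte genes on 3 longer lists (38 T, 25 NK and 32 B cell genes) were measured in the same way. Their sums had ratios of tumour to liver means of 1.22 (T), 1.64 (NK) and 8.47 (B). In these sums 2, 4 and 5 of 6 tumours lay above all livers. S1pr1 was the largest part of the further T sum in each library, and Ly6d of the further B sum in 5 of 6 tumours. Mean S1pr1 was 74.0 CPM in liver and 50.6 in tumours, within T sums of 105 and 129. For Ly6d the means were 4.69 and 303, within B sums of 51.7 and 438. Tyrobp (14.2 and 28.8) and Fcer1g (19.5 and 23.1) made up most of the NK sums of 39.4 and 64.4. The ratios depend largely on these genes and were not computed without them. Of the 70 that could be tested, 6 were higher in tumours than in livers with equal weight on both genotypes and none lower (8.57%, against 4.86% of all tested genes called higher). The median fitted log2 fold change was 2.95, or 1.12 with empty groups at 3 counts per library. At an unadjusted p under 0.05, 22 were higher and 2 lower (13.6% and 10.0% of all tested genes). Of the 70, 9 had no count in any liver and so had to come out higher, so the counts and medians support nothing about the lists; none of the 6 called genes is among these 9. The calls of Ltb, Ccl5 and Ly6d held in each of the 10 settings that left out 1 library, which none of the 3 calls among the 37 genes did. That of Igha held in 5 of the 10, and was lost without WT liver 1, either KO liver, WT tumour 2 or KO tumour 3 (adjusted p up to 0.086). Tnfrsf18 was called only without either WT liver or KO tumour 2 (adjusted p elsewhere up to 0.082), and Iglc1 only without WT liver 2 or KO tumour 2 (up to 0.28). All 6 held without KO tumour 2. Within WT, edgeR called 4 of the 70 (5.71%, against 8.34% of all tested genes), all higher: Ccl5, Ly6d, Tyrobp and Tox, a factor of exhausted T cells (log2 fold change 2.49 ± 0.71 SE, edgeR adjusted p = 0.041). Tox was highest in WT tumour 2 (28.1 CPM), the library lowest in T genes without Zap70 (3.86 CPM). The cell type behind the Tox reads was not tested.

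Among the further T genes, edgeR called Ltb, Ccl5 and Tnfrsf18 higher over both genotypes. DESeq2 called 10 of the 28 to which it gave an adjusted p, all higher, and 15.2% of all tested genes in either direction. Its calls were these genes and Bcl11b, Ccr7, Ptprcap, Sh2d2a, Tox, Trac and Trbc1. Ccr7 had no count in any liver, and nothing is read from this share. Ltb, a lymphotoxin that organises lymphoid tissue, had 9 and 2 counts in the WT livers, none in the KO livers, 135, 100 and 68 in the WT tumours, and 97, 21 and 37 in the KO tumours. All 6 tumours lay above all livers, KO tumour 2 included (log2 fold change 6.51 ± 1.21 SE, edgeR adjusted p = 0.0039). Both KO livers were empty, so this fitted value depends on the model's prior count and is no bound. The KO tumour mean of Ltb was at least 20.2-fold above the limit of 3 counts per KO liver library. Ccl5, a chemokine made by activated T and NK cells, had 7 and 1 counts, 44 and 44, then 514, 92 and 324, and 96, 7 and 161. In Ccl5, 5 tumours exceeded all livers and KO tumour 2 did not (log2 fold change 3.66 ± 0.81 SE, edgeR adjusted p = 0.010). Tnfrsf18, the costimulator GITR of regulatory and activated T cells, had 28 counts in WT liver 1 and none in the other livers, against 92, 177 and 109 in the WT tumours and 74, 2 and 28 in the KO tumours (log2 fold change 5.77 ± 1.55 SE, edgeR adjusted p = 0.032). With the KO livers empty, this value also depends on the prior count. The KO tumour mean of Tnfrsf18 was at least 13.6-fold above the limit for the KO livers. Trbc1, the other beta chain constant region, had at most 1 count in a liver and 0 to 53 in tumours. The close similarity of Trbc1 and Trbc2 means that the split of reads between them is uncertain. Trdc, a constant region of the gamma-delta receptor, had at most 1 count in any library.

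No further NK gene passed the test over both genotypes by edgeR (3 of 15 tested were higher at an unadjusted p under 0.05 and none lower), and DESeq2 called Gzmk and Tyrobp, both higher. Tyrobp, an adaptor shared by NK and myeloid cells, rose in the WT tumours against WT liver (log2 fold change 1.76 ± 0.51 SE, edgeR adjusted p = 0.047), and had 122 to 478 counts in the livers. Gzmk, a granzyme, had 2 counts in WT liver 1, none in the other livers and 105, 0 and 18, then 28, 0 and 19 counts in tumours (edgeR adjusted p = 0.13).

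From the B cell list edgeR called 3 genes higher over both genotypes, and they were of different kinds. DESeq2 called these 3, Cd22 and Ighg2b, all higher, which made 5 of the 24 to which it gave an adjusted p. It called 15.2% of all tested genes in either direction, and nothing is read from this share. Igha, the IgA heavy chain, had 110 and 210 counts in the WT livers, 59 and 48 in the KO livers, 218, 1453 and 252 in the WT tumours, and 738, 31 and 2336 in the KO tumours. KO tumour 3 and WT tumour 2 were highest and KO tumour 2 lowest of all libraries (log2 fold change 3.31 ± 0.88 SE, edgeR adjusted p = 0.027). Iglc1, a lambda light chain constant region with near copies in the genome, had 0 to 16 counts in the livers and 6 to 300 in the tumours (log2 fold change 4.80 ± 1.43 SE, edgeR adjusted p = 0.049). Ly6d, a surface protein of early B cells and also of some epithelial cells, had 19 to 189 counts in the livers, 61 in KO tumour 2, and 3541 to 8729 in the other 5 tumours (log2 fold change 5.96 ± 0.92 SE, edgeR adjusted p = 0.00099). It followed Afp in leaving out KO tumour 2, and the cell type behind its reads was not tested.

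Chemokines that draw lymphocytes were mixed. Of 11 tested genes on that list, Cxcl9 and Ccl4 rose and Cxcl12 fell, where 4.86% of all tested genes were called higher and 4.33% lower. Cxcl9, induced by interferon gamma, had 135 and 285 counts in the WT livers, 382 and 364 in the KO livers, 2207, 417 and 827 in the WT tumours, and 1140, 207 and 1490 in the KO tumours (log2 fold change 1.94 ± 0.48 SE, edgeR adjusted p = 0.019). Ccl4 had 32 counts in WT liver 1, at most 1 in the other livers and 26 to 248 in tumours (log2 fold change 5.59 ± 1.32 SE, edgeR adjusted p = 0.016). Both KO livers had no Ccl4 count, so this fitted value depends on the model's prior count. The KO tumour mean of Ccl4 was at least 15.1-fold above the limit of 3 counts per KO liver library. The Ccl4 call was lost without WT tumour 1 (adjusted p = 0.057), and that of Cxcl9 without WT liver 1, KO liver 1, WT tumour 1 or KO tumour 3 (adjusted p up to 0.062). Cxcl12, a homing signal for many leukocytes, fell by 1.08 ± 0.18 (SE, edgeR adjusted p = 0.0018) on the log2 scale, as a mean of both genotypes. Its mean was 254 CPM in WT livers and 78.2 in WT tumours, against 265 in KO livers and 193 in KO tumours. Within WT edgeR called it lower, and within KO it did not. For the interaction DESeq2 called Cxcl12 and edgeR did not. Among the lymphocyte and chemokine genes tested it was the 1 that edgeR called between genotypes in tumours, at 1.30 ± 0.24 higher in the KO tumours (SE, edgeR adjusted p = 0.0041). DESeq2 called it too, and Ighg3, an IgG heavy chain, as lower in the KO tumours. Ccl19 and Ccl21a, the chemokines of T cell zones, were at 0 in all libraries.

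Genes of other blood cells were compared between tumours and livers over both genotypes too, where 4.86% of all tested genes were called higher and 4.33% lower. Pan-leukocyte genes had 4 of 13 members higher in tumours and none lower (Ptprc, Cd52, Laptm5 and Itgb2; only the call of Cd52 held whichever library was left out), and their summed level ran from 177 to 225 CPM in the livers and from 209 to 340 in the tumours. Macrophage and Kupffer cell genes had 4 of 16 higher and 1 lower, and summed to 592 to 926 CPM in the livers and 771 to 1360 in the tumours. Neutrophil and mast cell genes had 2 of 6 tested higher (S100a8 and S100a9; the S100a9 call held in 5 of the 10 settings that left out 1 library, with an adjusted p up to 0.076), and summed to 11.5 to 24.8 CPM and 19.8 to 230. Dendritic cell genes had 1 of 10 tested higher, Itgax, and this call held only without WT tumour 2 or KO tumour 2 (adjusted p elsewhere up to 0.15). Red cell genes had 2 of 7 higher and none lower, Hbb-bs and Hbb-bt. Hbb-bs rose by 1.37 ± 0.19 (log2, SE, edgeR adjusted p = 4.1e-04), with all 6 tumours above all livers. Hba-a1 and Hba-a2 of the same list were not called, with ratios of tumour to liver means of 1.17 and 0.91. The red cell list summed to 1880 to 2980 CPM in the livers and 2440 to 4790 in the tumours. Unlike in the lymphocyte sums, KO tumour 2 was among the highest in red cell genes (4690 CPM) and WT tumour 3 lay within the range of the livers (2440 CPM). The part of blood retained in the tissue, or of these other cells, in the lymphocyte results was not tested. The lymphocyte ratios of 2.46 (T genes without Zap70), 2.84 and 2.45 lay between those of the macrophage list (1.64) and the neutrophil list (6.76), and whether they differ from them was not tested.

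**Figure D5:**
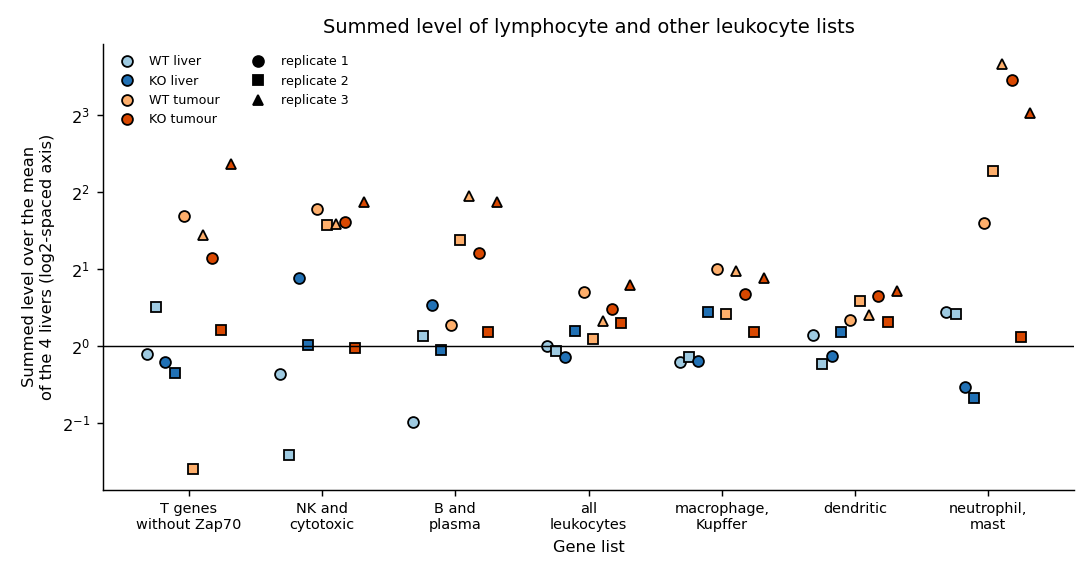
Summed level of 7 gene lists in each library, divided by the mean of the 4 livers, on a log2-spaced axis; colours give the group and markers the replicate number. WT tumour 2 is lowest of all libraries in T genes without Zap70 and lies among the other tumours in NK and B genes, and KO tumour 2 lies within the range of the livers in the 3 lymphocyte lists.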

How the data were processed

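The authors deposited whole-number counts of reads per gene, not normalized, in 1 table. Per the submitters' processing notes, BWA and featureCounts were used on mm10. The sources used here do not give versions, annotation, strand setting or the handling of multi-mapped reads, so genes with near copies or overlaps are uncertain. Libraries were made from 50 ng of RNA with a strand-specific QuantSeq 3' forward kit, per the labels. Symbols were matched on gene identifiers for 38872 of 39056 rows (184 had none); coordinates are from GENCODE M21.

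All 10 libraries were fitted with edgeR 4.0.16 in R 4.3.3 (filterByExpr, TMM, quasi-likelihood, 1 term per group, residual degrees of freedom 6), and the code was tested on simulated data. DESeq2 1.42.0, other scalings and filters, fits to the groups compared alone, a replicate block and leaving out each library were alternatives. Standard errors were derived from fold changes and F statistics. P-values weigh differences between groups against the spread between these libraries, which the main fit estimated over all 10 with sharing across genes. The members and all lists were chosen with earlier results of these data known.

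All 37 genes are accounted for. Full statistics are given for called genes, the 3 highest per lineage and 15 defining markers; further lists give up to 3 called genes by smallest p, or the 2 smallest. Cd4, Trac, Trbc1 and Trdc were also named for their role; another gene of that rule is not reported here.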

Additional observations from a re-analysis of the deposited data

How the results depend on the processing

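The number of the 31 genes called depended on the tool and the filter. With no filter on low counts, edgeR called 3 for WT tumour against WT liver, 3 for KO tumour against KO liver, 1 for KO against WT liver, 1 for the interaction and 6 for tumours against livers over both genotypes. DESeq2 called 4, 2, 1, 1 and 5 in the same order, and a fit to the groups compared alone called 2 within WT. Leaving out 1 library gave 0 to 2 within WT, 0 to 1 within KO and 0 to 3 over both genotypes. The last count was 0 without KO tumour 3 and 1 without WT tumour 3 or KO tumour 1. Within WT it was 1 without KO liver 1, KO liver 2 or WT tumour 3, and 2 without KO tumour 2; within KO it was 1 without KO tumour 2. For KO against WT tumours every alternative gave 0. Without Ighm, Igkc and Jchain the log2 ratio of the B and plasma sum became -0.62 for WT tumour against WT liver (from 1.68) and 1.81 for KO against WT tumours (from -0.11); the other sums moved by less than 1 SD. With the replicate block the count over both genotypes was 0, Ighm became -0.39, Trbc2 within WT -0.34, and Cd8a between tumours 0.31. Deviations of libraries with the same replicate number correlated at -0.074 to 0.104 over 7636 genes, so the numbers pair nothing here. Over both genotypes, leaving out 1 library moved the log2 fold change of Ighm between -0.69 (without WT tumour 3) and 0.95, of Cd3e between -1.79 (without KO tumour 3) and 5.13, and of Cd4 between -4.76 and 1.5 (without WT liver 1). For KO against WT tumours it moved Trbc2 between -0.56 (without KO tumour 3) and 1.18, Jchain between -0.68 (without KO tumour 3; -0.26 without WT tumour 1) and 0.66, and Cd8a between -0.97 and 0.26 (without WT tumour 1). The Cd3e value of -1.79 and the Cd4 value of 1.5 came from fits that left a group without counts, so they depend on the model's prior count. The cause of the other changes was not tested. Groups of 2 and 3 libraries and a common dispersion of 0.516 limit what can be called.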
